A study of Mus musculus with 6 samples.

Results

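The genes described here encode 10 subunits of Polycomb repressive complex 1 (PRC1), and the data are the H3K27ac peaks at their promoters, in their gene bodies and within 50 kb of them in mouse embryonic stem cells (mESCs). The members were Ring1, Rnf2, Bmi1, Pcgf1, Pcgf2, Pcgf3, Pcgf5, Pcgf6, Cbx7 and Kdm2b, taken by name as PRC1 subunits, and the rule for membership uses no measured value. They are 10 of the 27706 protein-coding and lincRNA genes of the annotation, and 51 of the 22973 listed peaks lay in or within 50 kb of them. H3K27ac is acetylation of histone H3 at lysine 27, found at active promoters and enhancers.

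The cells were E14Tg2A Rosa26-Cre Oct4-IRES-Puro mESCs, a single line derived from a 129 strain mouse, in serum-free N2B27 medium supplemented with leukemia inhibitory factor (LIF) and inhibitors of MEK and GSK3. H3K27ac ChIP-seq had 6 samples, which were 2 control replicates given the solvent DMSO, 2 replicates given 100 nM of the CDK9 inhibitor NVP-2 and 2 given actinomycin D (ActD, 800 nM by the sample labels), all for 120 min. Every sample also received chromatin of HEK293T, a human embryonic kidney line, as a spike-in. Only the peak list of the control cells, which the authors called on both replicates pooled, was analysed here, so the treated cells enter no value.

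The list gives the chromosome, start and end of each peak in the mm10 build and no height, score or read count. The sequencing depth behind a peak cannot be read from it, there is no replicate error, and a position or width carries no measured uncertainty. A gene without a peak may have been below the height thresholds of the list or away from an ATAC-seq summit, since such peaks were removed, so a missing peak is not the same as having no acetylation. The labelled cell type was checked against marker genes. Of 10 markers of mouse ES cells, 9 had a peak at their promoter (all but Klf4), with a median width of 34042 bp. None of 6 fibroblast feeder markers had one (Col1a1, Col1a2, Col3a1, Thy1, Twist2 and Prrx1), and 3 of 8 genes of differentiated or extraembryonic cells did (Gata4, Gata6 and Sox1).

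PRC1 is a ubiquitin ligase that attaches a single ubiquitin to histone H2A (the mark H2AK119ub) and holds developmental genes silent. Its catalytic core is Ring1 or Rnf2 (RING1A and RING1B) bound to 1 of the PCGF proteins, and the PCGF protein sets the type of complex. Canonical complexes carry a CBX protein, which reads the H3K27me3 mark of Polycomb repressive complex 2, whereas variant complexes carry Rybp or Yaf2 in its place. A given lysine 27 of histone H3 can be methylated or acetylated but not both, so H3K27ac and H3K27me3 exclude each other on a histone tail.

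All 10 genes had an H3K27ac peak within 1 kb of at least 1 of their transcription start sites (TSS), which is called a marked promoter. Over all 21853 protein-coding genes, 51% had one (95% Wilson interval 50.4 to 51.7%, counting error only), and over protein-coding and lincRNA genes together 43.6% did. The share of marked genes is so large in these cells that a marked promoter sets none of the members apart from the many other marked genes. The members differed among themselves in where the peaks lay and how wide they were. Each gene's longest isoform was taken as the one spanning the most genome, and at its TSS 9 of the 10 were marked, Pcgf5 being the exception, against 48.8% of protein-coding genes. For 8 of the 10 the longest-isoform TSS was itself inside a peak, which held for 44.2% of protein-coding genes. Across the 45 distinct TSS annotated for the 10 genes, 33 windows were marked, and 12 were not. The share over the TSS windows of all genes was not computed, and windows of close TSS overlap, so this count is a description only.

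**Figure D1:**
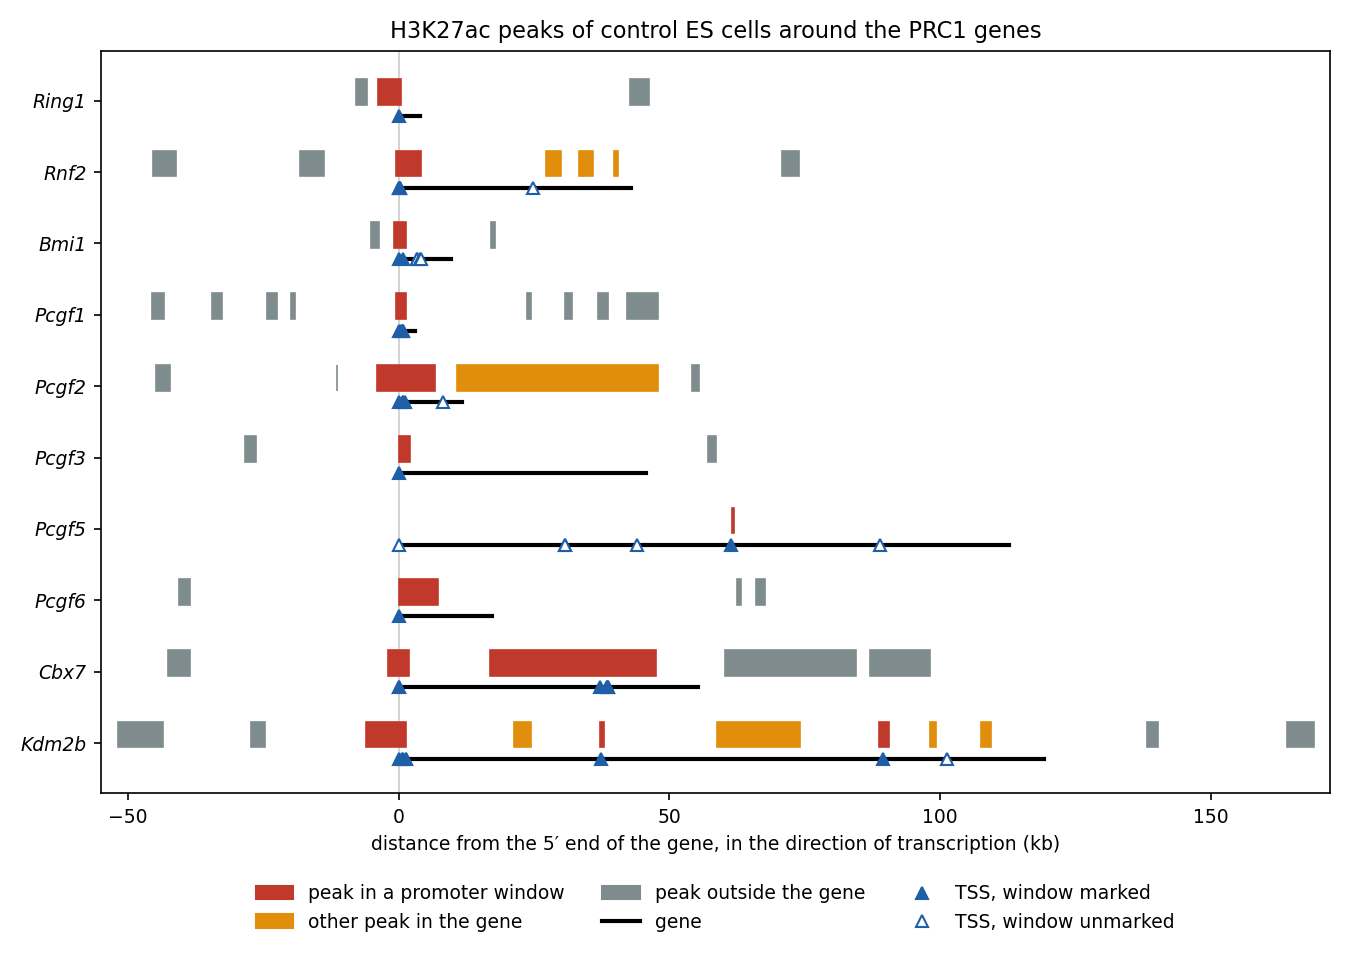
H3K27ac peaks in and within 50 kb of the 10 PRC1 genes, with distance from the 5′ end of each gene in kb along the direction of transcription; black lines are genes, triangles are TSS (filled where a peak lies within 1 kb), and bars are peaks, red at a promoter, orange elsewhere in the gene and grey outside it. Pcgf5 has a single narrow peak 61.5 kb into the gene, Kdm2b has 7 peaks over the gene, and Cbx7 and Pcgf2 carry the widest bars.

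Upstream sequences of 4 members are shown because their peaks differ in position, as described below. They are the bases before the RefSeq start sites (GRCm38.p6), with the bases that fall in an annotated exon left out, written 5′ to 3′ on the strand of the gene with each CG dinucleotide in capitals. CG dinucleotides are rare in most of the mouse genome and frequent in CpG islands, the sequences that Kdm2b binds through its CXXC zinc finger. The reference is the C57BL/6J genome, not the 129 genome of the cells. RefSeq starts were found for 9 of the 10 members. Pcgf1 was not matched. Of the 14 starts of these 9 genes, 12 had a peak within 1 kb. The share over all RefSeq starts was not computed. The first 3 sequences are the starts of Pcgf5, of which only the third had a peak, and the others are a start of Kdm2b inside the gene and the 5′ ends of Bmi1 and Ring1, all 3 inside peaks.
Pcgf5 5′ end, no peak, chr19:36348079-36348308 (+ strand): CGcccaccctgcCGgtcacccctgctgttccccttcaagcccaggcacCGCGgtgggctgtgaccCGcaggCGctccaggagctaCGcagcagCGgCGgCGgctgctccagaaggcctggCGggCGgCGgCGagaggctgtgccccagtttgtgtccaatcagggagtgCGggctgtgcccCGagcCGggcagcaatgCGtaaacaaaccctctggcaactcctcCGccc
Pcgf5 second start, no peak, chr19:36378817-36379066 (+ strand): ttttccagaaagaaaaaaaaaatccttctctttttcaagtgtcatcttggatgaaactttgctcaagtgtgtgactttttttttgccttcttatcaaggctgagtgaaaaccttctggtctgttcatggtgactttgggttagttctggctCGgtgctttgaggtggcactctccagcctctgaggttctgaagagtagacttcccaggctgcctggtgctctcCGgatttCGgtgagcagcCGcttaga
Pcgf5 internal start, peak, chr19:36409498-36409747 (+ strand): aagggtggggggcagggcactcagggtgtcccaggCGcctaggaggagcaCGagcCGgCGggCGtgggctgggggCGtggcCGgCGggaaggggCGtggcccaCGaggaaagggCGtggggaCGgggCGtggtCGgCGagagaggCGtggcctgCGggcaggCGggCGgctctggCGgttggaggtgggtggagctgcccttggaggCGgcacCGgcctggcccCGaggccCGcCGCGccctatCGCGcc
Kdm2b internal start, peak, chr5:122900368-122900617 (− strand): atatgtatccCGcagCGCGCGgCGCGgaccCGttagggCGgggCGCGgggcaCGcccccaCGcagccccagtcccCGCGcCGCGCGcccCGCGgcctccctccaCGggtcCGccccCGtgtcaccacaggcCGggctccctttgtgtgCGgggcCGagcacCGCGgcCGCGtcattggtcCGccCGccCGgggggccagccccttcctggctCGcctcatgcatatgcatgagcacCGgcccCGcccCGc
Bmi1, peak, chr2:18676768-18677017 (+ strand): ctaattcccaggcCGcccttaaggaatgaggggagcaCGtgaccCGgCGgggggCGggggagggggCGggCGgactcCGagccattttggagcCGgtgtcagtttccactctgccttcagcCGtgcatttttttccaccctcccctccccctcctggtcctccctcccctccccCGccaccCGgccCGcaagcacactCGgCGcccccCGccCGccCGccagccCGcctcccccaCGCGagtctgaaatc
Ring1, peak, chr17:34024681-34024930 (− strand): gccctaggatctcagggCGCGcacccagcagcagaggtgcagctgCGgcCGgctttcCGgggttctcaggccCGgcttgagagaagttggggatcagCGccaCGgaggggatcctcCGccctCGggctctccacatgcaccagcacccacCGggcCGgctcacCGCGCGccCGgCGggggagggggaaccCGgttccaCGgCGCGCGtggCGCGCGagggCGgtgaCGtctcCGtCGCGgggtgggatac

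The unmarked 5′ end of Pcgf5 held 19 CG dinucleotides in 230 bases and its marked internal start 28 in 250, whereas the unmarked second start held 4 in 250. The internal start of Kdm2b held 36 in 250 bases, the 5′ end of Ring1 30 and that of Bmi1 21.

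Ring1 and Rnf2, the paralogous catalytic subunits, both had a peak over the TSS, placed in opposite directions. Rnf2 encodes the main H2A ligase of mESCs. Its gene (chr1:151458004-151500955, − strand, 43.0 kb) had a promoter peak of 4691 bp at chr1:151496804-151501494, of which 539 bp lay upstream and 88.5% from the TSS into the gene. Ring1 (chr17:34020792-34024680, − strand, 3.89 kb) had one of 4196 bp at chr17:34024302-34028497, with 3817 bp upstream and 9.03% on the gene side. Among the 9663 protein-coding genes with the longest-isoform TSS inside a peak, the gene-side share had a median of 59.4%, and Ring1 lay at percentile 1.71 and Rnf2 at percentile 88.2. The upstream part of the Ring1 peak reached over the promoters of H2-Ke6 and Gm26940, so the acetylation at Ring1 cannot be told apart from that of these neighbours.

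The body of Rnf2 held 3 further peaks outside the promoter windows, of 2820, 2596 and 727 bp. The first covered exons 5 to 7 of the longest isoform. The other 2 lay beyond the last exon of that isoform, inside the genomic span of the single longer-reaching transcript Rnf2-207. Upstream of Rnf2, peaks of 4414 and 4265 bp lay 13.8 and 41.2 kb from the gene and at no promoter of a protein-coding or lincRNA gene. In all 7 peaks lay in or within 50 kb of Rnf2 and 3 of Ring1, against a median of 2 for protein-coding genes (quartiles 1 and 4).

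Bmi1 (Pcgf4) and Pcgf2 (Mel18), the PCGF proteins of canonical PRC1, were both marked at the 5′ end, Pcgf2 over a wider stretch. The peak at Pcgf2 (chr11:97688823-97700497, − strand) measured 10806 bp, the 89.8 percentile of the widest promoter peaks of 11149 marked protein-coding genes, and also covered the promoter of Psmb3, which encodes a proteasome subunit. A second peak of 37063 bp, at chr11:97652649-97689711, covered exon 10 of the longest isoform, at the 3′ end of the gene, and ran on over the promoters of Cisd3 and Mllt6. Peaks thus covered 65.3% of the bases of Pcgf2, the highest value of the 10 genes. Bmi1 (chr2:18677018-18686629, + strand) had a peak of 2138 bp (percentile 48.4) at chr2:18676146-18678283. It covered 2 of the 6 TSS of Bmi1, and the other 4 lay 2.09 to 2.82 kb beyond its end and were unmarked. The nearest other peak, 1520 bp wide and 3.62 kb upstream, was at the promoter of Commd3.

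Pcgf1, Pcgf3, Pcgf5 and Pcgf6, the PCGF proteins of variant complexes, differed in the width of their promoter peaks, which was 7303 bp at Pcgf6, 1955 bp at Pcgf3, 1947 bp at Pcgf1 and 423 bp at Pcgf5. The values for Pcgf3 and Pcgf1 were close to each other and just under the median of 2225 bp over marked protein-coding genes (quartiles 1570 and 4990 bp). Pcgf6 was at percentile 83.6 and Pcgf5 at percentile 1.14.

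Pcgf5 stood apart from the other members by the position of its only peak. Its product joins a variant complex with Auts2 and casein kinase 2. The gene (chr19:36348309-36460970, + strand) spans 112.7 kb and has 8 isoforms from 6 TSS. The longest isoform starts at the 5′ end, and the nearest peak to that TSS was 61.5 kb downstream. This peak, chr19:36409836-36410258, began 88 bp after an internal TSS shared by 2 isoforms, so that this TSS was not itself inside it. No other peak lay in the gene or within 50 kb of it. The remaining 4 TSS were 17.6 to 30.8 kb from the peak. A promoter marked at another isoform but not at the longest was found at 2.17% of protein-coding genes and at 1 of the 10 members. The peak was narrow and rich in CG, with 75 CG dinucleotides and a GC content of 78.7%. Among the 1009 protein-coding genes between 100 and 150 kb long, the median number of peaks overlapping the gene was 1 (quartiles 0 and 3), so a single peak was a usual count for a gene of this length.

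Pcgf6, Pcgf1 and Pcgf3 had a peak at the 5′ end of the gene. Pcgf6, found with Max and Mga in a complex that silences germ cell genes, lies at chr19:47033617-47050906 (− strand), and its peak at chr19:47043634-47050936 reached only 32 bp upstream of the TSS and 7271 bp into the gene, over exons 1 to 6. The gene-side share of 99.6% was at percentile 99.5 of protein-coding genes, the reverse of Ring1. The peak of Pcgf3 (chr5:108461232-108506976, + strand), at chr5:108461302-108463256, lay wholly inside the gene and began 70 bp after the TSS. Pcgf1, the partner of Kdm2b and Bcor, lies at chr6:83077869-83080855 (+ strand), and its peak at chr6:83077354-83079300 reached 1431 bp past the 5′ end of the gene and held all 5 TSS. Around Pcgf1 there were 8 further peaks within 50 kb, of which 7 lay at promoters of other genes, among them Dok1 and Loxl3, Aup1 and Htra2, Mogs, and Ino80b and Wbp1. Only the peak 32.6 kb upstream was at no promoter of a protein-coding or lincRNA gene.

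**Figure D2:**
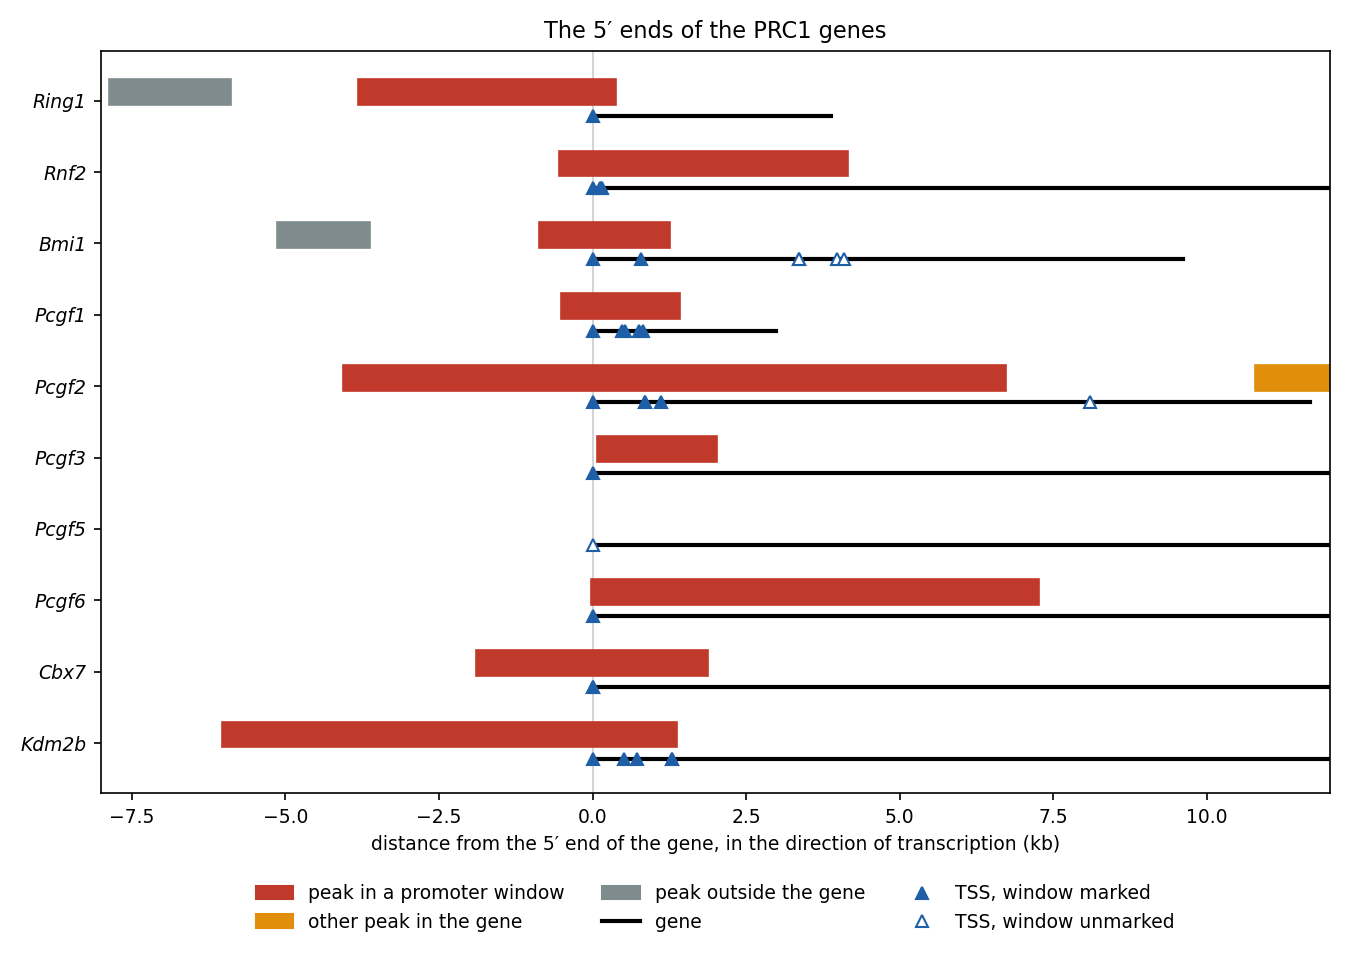
The same peaks and TSS from 8 kb upstream to 12 kb downstream of the 5′ end of each gene (kb, in the direction of transcription). The promoter peaks of Ring1 and Kdm2b lie mostly upstream, those of Pcgf6, Pcgf3 and Rnf2 mostly inside the gene, and Pcgf5 has none.

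Cbx7 carried the most acetylated sequence of the 10 genes, 73792 bp of peaks in and within 50 kb of it. It encodes the main CBX protein of canonical PRC1 in mESCs. The gene (chr15:79915807-79971119, − strand, 55.3 kb) had promoter peaks at 2 places, and all 7 of its TSS were inside them. The TSS of the 2 isoforms that start at the 5′ end lay in a peak of 3770 bp at chr15:79969247-79973016. The other 5 TSS, 37.2 to 38.6 kb downstream, lay in a peak of 30642 bp at chr15:79923678-79954319, at percentile 98.3 of the widest promoter peaks of marked protein-coding genes. Peaks covered 58.8% of the gene. Downstream, peaks of 24189 bp (at the promoter of Apobec3) and 11174 bp followed at 5.05 and 31.7 kb from the gene. For comparison, the promoter peaks of the 9 marked ES cell markers were 19693 to 71785 bp wide, so the wider Cbx7 peak was within their range and the next widest member, Pcgf2, was below it. The list joins peaks that are close together, with a smallest gap of 2001 bp between listed peaks, so a wide peak may hold several separate ones.

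Kdm2b had the most peaks of the 10 genes, 7 over the gene and 11 in or within 50 kb of it. It encodes the CXXC protein that brings the complex with Pcgf1 to unmethylated CpG islands. The gene (chr5:122870665-122989823, − strand) spans 119.2 kb. Of the 1009 protein-coding genes between 100 and 150 kb long, 16 (1.59%) held at least 7 peaks. A peak of 7420 bp at chr5:122988440-122995859 covered the 5 TSS of the 5′ end, with 11.7% of it on the gene side of the TSS of the longest isoform, which lies 517 bp inside the gene. A peak of 792 bp lay at the TSS of Kdm2b-214, 37.3 kb into the gene, and a peak of 1873 bp, chr5:122899292-122901164, at the TSS of Kdm2b-201 in intron 12, 89.5 kb into the gene, where the upstream sequence shown above lies. Kdm2b is known to give a shorter protein without the demethylase domain from a start inside the gene; which transcript makes it was not examined. The other 4 peaks in the gene were 15323, 3246, 1864 and 1161 bp wide.

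Promoter windows overlapped by at least 2 peaks were found in 2 members, Cbx7 and Kdm2b, and in 2.74% of protein-coding genes. A peak in the gene body outside the gene's own promoter windows was found in 3 members, Rnf2, Pcgf2 and Kdm2b, and in 19.3% of protein-coding genes. That of Pcgf2 lay at its 3′ end and also covered the promoters of Cisd3 and Mllt6. The members had a median length of 30.1 kb against 17.4 kb for protein-coding genes, with 5 of the 10 shorter than that median. The part of gene length in these counts was not tested.

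**Figure D3:**
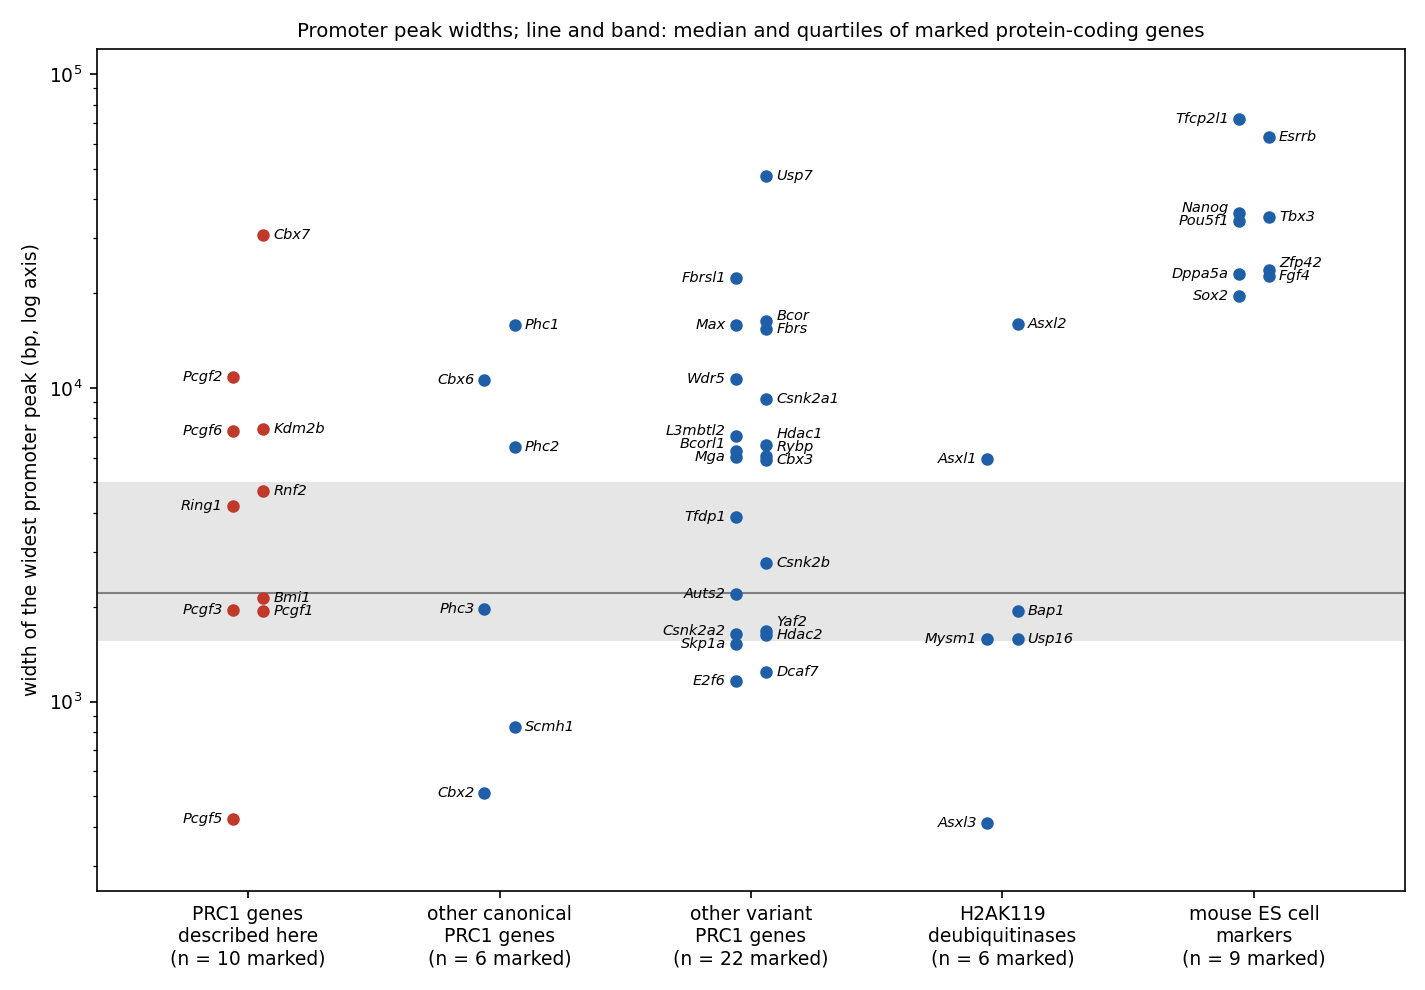
Width of the widest promoter peak (bp, log axis) of each marked gene in the 10 members (red) and in 4 further lists (blue); the line and grey band are the median (2225 bp) and quartiles (1570 and 4990 bp) of 11149 marked protein-coding genes. Cbx7 lies highest and Pcgf5 lowest of the members, and the ES cell markers lie between 19693 and 71785 bp.

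Across the 10 genes the widest promoter peak had a median of 4443.5 bp, with 6 of the 10 above the median of marked protein-coding genes. The members had a median of 4.5 peaks in or within 50 kb (range 1 to 11, from Pcgf5 to Kdm2b), against 2 for protein-coding genes. The median share of the gene in peaks was 22.7% (0.375% at Pcgf5 to 65.3% at Pcgf2), against 1.51%. These reference medians are over all 21853 protein-coding genes, marked or not, whereas all 10 members were marked. The median number of peaks overlapping the gene was 1 in the members and 1 in protein-coding genes. Of the 51 peaks, 13 were promoter peaks, 8 were elsewhere in a gene, and 30 lay outside the genes, with 15 upstream and 15 downstream. Of these 30, 20 were at promoters of other genes, and their acetylation cannot be assigned to the PRC1 gene from position alone. The same share around other genes was not computed.

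Of 30 further genes of PRC1 complexes, 28 had a marked promoter, against 51% of protein-coding genes. All 22 genes of variant complexes outside the 10 were marked, from 1167 bp at E2f6 to 47209 bp at Usp7, a deubiquitinase. Bcor and Auts2, partners of Pcgf1 and of Pcgf3 or Pcgf5, were marked only at isoforms other than the longest, as was Pcgf5. Of 8 further canonical genes 6 were marked. The exceptions were Cbx8, 17.3 kb from the nearest peak, and Scml2 on chromosome X, 612 kb from it. Phc1, a polyhomeotic subunit, had the widest peak of this list at 15849 bp, and Scmh1 and Cbx2 had narrow ones of 830 and 512 bp. No difference between the lists was tested.

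Among paralogues of Cbx7, Cbx6 on the same chromosome had a promoter peak of 10631 bp, whereas Cbx2 on chromosome 11 had one of 512 bp and Cbx8, also on chromosome 11, had none. The enzymes that remove H2AK119ub and their partners were all marked, 6 of 6 against the same 51%, with the widest peak at Asxl2 (15943 bp) and the narrowest at Asxl3 (412 bp). Bap1, the catalytic subunit that pairs with the Asxl proteins, had 1940 bp, and Usp16 and Mysm1 had 1585 and 1588 bp.

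CG dinucleotides were denser around the marked than around the unmarked starts of the members, although the ranges overlapped, with the 5′ end of Pcgf5 the highest of the unmarked. The measure was the CpG observed/expected ratio within 1 kb of the TSS, the number of CG dinucleotides over that expected from the C and G content. Its median was 0.641 in the 10674 protein-coding promoters marked at the longest isoform and 0.227 in the 11179 unmarked. The 33 marked TSS of the members had a median of 0.663 (range 0.394 to 0.988) and the 12 unmarked a median of 0.390 (0.195 to 0.816); TSS of a gene that lie close together share most of their window and are not independent. The highest value was at Bmi1, 0.988, while its 4 unmarked downstream TSS had 0.392 to 0.475.

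The 5′ end of Pcgf5 had a ratio of 0.816, percentile 92.7 of protein-coding promoters, without a peak, and its internal marked TSS had 0.907. Of 1877 protein-coding promoters with a ratio of at least 0.8 at the longest isoform, 89.6% were marked, and Pcgf5 was among the 195 that were not. At the other end the longest isoform of Cbx7 was marked at a ratio of 0.394. The internal TSS of Cbx7, where its only RefSeq start lies, had 0.495 to 0.635. Of 9304 promoters with a ratio of at most 0.4, 11.8% were marked. Within Kdm2b the internal TSS of Kdm2b-201 had the highest ratio, 0.886, against 0.569 at the longest isoform, and its only unmarked TSS, of Kdm2b-217, had 0.259.

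**Figure D4:**
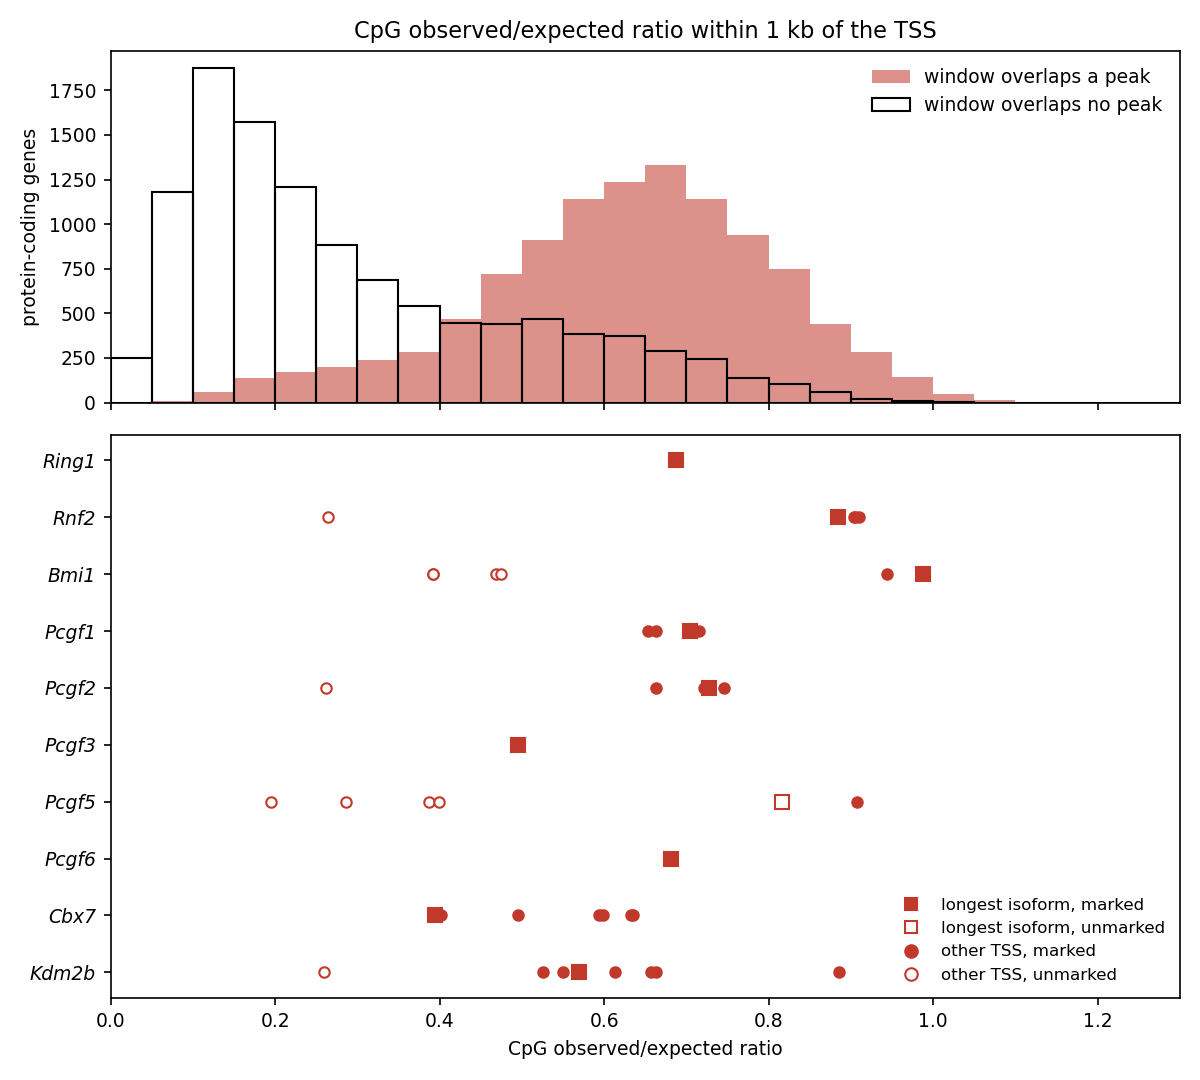
CpG observed/expected ratio within 1 kb of the TSS, above as counts of protein-coding genes (longest isoform) with and without a peak in the window, and below for each TSS of the 10 genes (squares, longest isoform; circles, other TSS; filled, marked; open, unmarked). The open square is the 5′ end of Pcgf5 at 0.816, at the upper end of the unmarked promoters.

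At the TSS of the longest isoform, none of 9 factor motifs was shared by more than 2 of the members. Exact matches were sought on both strands from 250 bases before to 50 after the TSS of the longest isoform. The E-box CACGTG, bound by Max with Myc or Mga, was present at Bmi1 (-215 to -210) and Pcgf2 (-137 to -132) and in 7.74% of protein-coding promoters. GGGGCGGGG, a Sp and Klf motif, was present at Bmi1 and Pcgf6 and in 15.3%. The E2F motif TTCCCGCC was present at Rnf2 and in 3.00%, the NRF1 motif TGCGCATG at Pcgf3 and in 2.91%, and both the ETS motif CCGGAAG (11.2%) and the YY1 motif AAGATGGCG (1.87%) at Pcgf1. These motifs were more frequent among the 10674 protein-coding promoters marked at the longest isoform, where the E-box was found in 10.8%, the Sp and Klf motif in 23.1%, the E2F motif in 4.72%, the NRF1 motif in 4.13%, the ETS motif in 19.4% and the YY1 motif in 3.49%. The octamer ATGCAAAT of Oct4 (1.57%), the Esrrb motif TCAAGGTCA (0.435%) and TCTCGCGA of Banp and Zbtb33 (1.41%) had no exact match in this window at the longest isoform of any member. At other, unmarked TSS, a single octamer site lay in the windows of 2 starts of Bmi1 that are 2 bp apart. The Sp and Klf motif matched at 2 further unmarked starts of Bmi1, and the Esrrb motif at 2 unmarked starts of Pcgf5. At the marked internal TSS of Pcgf5 an E2F match lay on the opposite strand at -168 to -161, and at that of Kdm2b 2 overlapping GGGGCGGGG matches lay on the opposite strand between -23 and -10. An E2F match lay at a further marked TSS of Pcgf2 (-15 to -8), and an ETS match on the opposite strand at the 5′ end of Kdm2b (-96 to -90). With all TSS counted, the E2F motif was present at Rnf2, Pcgf2 and Pcgf5, and the Sp and Klf motif at Bmi1, Pcgf6 and Kdm2b. These matches describe the letters of the sequence and do not show binding.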

How the data were processed

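H3K27ac ChIP-seq peaks of control mESCs were analysed. According to the methods and the submitters' notes, the authors trimmed adapters with cutadapt, aligned reads with BWA to a combined mouse (mm10) and human reference, dropped duplicates (Picard 2.9.1) and reads of low mapping quality (SAMtools 1.4), used LanceOtron as the peak caller, joined those within 2 kb and kept peaks above height thresholds and near ATAC-seq summits. The deposited list pools both replicates and holds 3 columns (chromosome, start, end) without a score; its values are positions. Intervals were read as starting from 0 and are printed counting from 1.

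Peaks were set against GENCODE M21 (GRCm38), an earlier release than the one the authors used, with 27706 protein-coding and lincRNA genes and 67283 transcripts of those types. A promoter was ±1 kb around a TSS and any overlap counted. The members and lists were chosen with earlier results of these data known. All 10 members are described; of the lists of further PRC1 genes and of deubiquitinases every unmarked gene, the gene with the widest promoter peak and genes that share a peak with a member were named by rule. Other genes of these lists (the narrow peaks and the isoform exceptions, Cbx6, Bap1, Usp16 and Mysm1) and neighbours at peaks were named after their values were seen. Percentiles give the share of protein-coding genes below a value.

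No test was run, because there is a single list without replicates; Wilson intervals (95%) cover counting error only. Promoter marking was tested on simulated data with 499 planted peaks. For all 4371 protein-coding genes checked, with or without a planted peak, the call was the same as from a direct comparison of every planted peak with every TSS. Python 3.11.15, numpy 2.4.6, scipy 1.17.1, pysam 0.24.0 and matplotlib 3.10.9 were used. Alternatives varied the window, isoforms, distance, peak width and overlap. The treated samples were not analysed here, and 1 gene was taken out of the further lists and their counts and is not reported here.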

Additional observations from a re-analysis of the deposited data

How the results depend on the processing

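Of 24 alternatives to the 6 main values, 21 left the value within 1.5 times. No result reversed. The median number of peaks around the members was 2 within 10 kb and 8 within 100 kb, where the medians of protein-coding genes were 1 and 4. Counted within 50 kb of the TSS of the longest isoform, and so without regard to gene length, it was 3 against 2. When only the longest isoform defined the promoter windows, 5 members in place of 3 had a gene-body peak outside them. The peaks at the internal starts of Pcgf5 and Cbx7 then counted as gene-body peaks. Where a promoter peak had to cover the TSS itself, which is not among the 24, Rnf2, Pcgf2, Pcgf3, Pcgf5 and Kdm2b had a gene-body peak. All 10 members stayed marked with windows of 500 bp or 2 kb and with transcripts of any type. Pcgf5 lost its mark with the longest isoform alone, with peaks of at least 1 kb and with an overlap of at least 500 bp (9 of 10 in each), and Pcgf3 and Pcgf5 lost it where the TSS had to be inside a peak (8 of 10). The added alternatives (RefSeq starts, transcripts of any type for gene-body peaks, and peaks of at least 1 kb for the width) were chosen after seeing the data and moved no value by more than 1.5 times. No paired analysis was possible because both control replicates are pooled in 1 list, and for the same reason no replicate could be left out. Without heights or read counts, the list cannot separate a strong peak from one just above the thresholds, nor a promoter without acetylation from one whose peak was removed by height or by distance to an ATAC-seq summit.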
